A study of Homo sapiens with 24 samples.

Results

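The genes described here encode the chains of the collagens. They were chosen by symbol as COL, a number, A and a number, with antisense RNAs and pseudogenes left out, and 44 of the 25702 counted Entrez identifiers met that rule. By the class of collagen they encode, 11 are fibrillar, 9 network-forming, 5 beaded, 10 FACIT (fibril-associated collagens with interrupted triple helices), 4 transmembrane, 2 multiplexins and 1 the anchoring fibril chain, and the remaining 2 (COL26A1 and COL28A1) fit none of these. RNA-seq read counts were compared in IMR90 human diploid lung fibroblasts, with 6 samples in each of 4 groups. All 24 samples carried retroviral ER:HRAS(G12V), an oncogenic HRAS fused to an oestrogen receptor domain that 4OHT (4-hydroxytamoxifen) switches on. Growing samples carried the MSCV vector and received no agent, and shHMGA1 samples carried an MSCV miR30 hairpin against HMGA1, a chromatin-binding high mobility group protein, and also received no agent. RIS (RAS-induced senescence) samples were vector cells given 4OHT for 6 days, and RIS+shHMGA1 samples were hairpin cells given the same 6 days. The cells were infected populations at passage 23 to 28, a single hairpin was used, and no sample received 4OHT without the fusion, so that the agent and the activated RAS cannot be told apart.

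Collagens are trimers of chains wound into a triple helix, and they make up most of the extracellular matrix that fibroblasts secrete. Fibrillar collagens assemble into tension-bearing fibres, network-forming type IV builds the sheet of basement membranes, beaded type VI forms microfilaments around cells, and FACITs sit on the surface of fibrils. Before a trimer leaves the cell its chains are hydroxylated, glycosylated and folded, and outside the cell enzymes trim the ends and cross-link the fibrils.

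Total counts ranged from 8698070 to 23103424 per sample with a median of 10604083. The hairpin lowered its target: HMGA1 was at 639 to 861 CPM (read counts scaled to library size with TMM factors) in growing samples and 54.4 to 143 in shHMGA1, and at 641 to 786 in RIS against 60.0 to 262 in RIS+shHMGA1. A pair of libraries went against their labels. On the first principal component of all genes, growing replicate 4 lay at 77.3, while the 5 other growing samples lay between -84.3 and -57.2 and the RIS+shHMGA1 samples between 52.5 and 84.1. RIS replicate 2 lay at -77.1, while the 5 other RIS samples lay between 16.8 and 62.1. Both were kept in their labelled groups, and the collagen genes called in each comparison that rests on them are counted with and without them. Replicates 5 and 6 of both groups given 4OHT also lay apart from the rest, without crossing to the other treatment: at 16.8 and 22.1 against 56 to 62.1 in RIS replicates 1, 3 and 4, and at 52.5 and 58.2 against 78.5 to 84.1 in RIS+shHMGA1 replicates 1 to 4. The 10 genes with the most reads held 17.2% and 15.9% of counts in RIS+shHMGA1 replicates 5 and 6 and 21% to 22.4% in replicates 1 to 4. Of the fibroblast markers, VIM was at a median, over all 6 samples, of 4822, 4481, 4172 and 3444 CPM in growing, shHMGA1, RIS and RIS+shHMGA1. The epithelial, leukocyte and cartilage genes KRT5, KRT14, SFTPC, CD3E, MS4A1, LYZ, ACAN and CNMD had a median of 0 in each group. Others on these lists did not, among them CLDN7 (group medians of 1.6 to 3.3 CPM), EPCAM (0.34 to 0.47) and CSF1R (0.94 to 1.91). MATN3, of the cartilage list, was at 7.99 CPM in growing and 8.75 in shHMGA1. Of the endothelial and smooth muscle lists, TEK was at a median of 89.7 CPM and ACTG2 at 377.5 in growing.

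The collagen genes together held between 3.41% and 6.92% of all counts in the 5 other growing samples, 2.29% to 3.42% in shHMGA1, 0.762% to 1.97% in the 5 other RIS samples and 0.485% to 0.887% in RIS+shHMGA1. Growing replicate 4 stood at 0.564% and RIS replicate 2 at 4.71%. The samples without 4OHT were thus all above those with it, apart from these 2 libraries, each of which stood within the range set by the opposite treatment. In bulk samples, fewer cells of a type and less RNA per cell cannot be told apart. Of the 44 genes, 29 passed the low-count filter (about 0.943 CPM in at least 6 samples) and were tested among 13356 genes. Levels of a collagen gene in a group are given below as its lowest, median and highest sample, with growing replicate 4 and RIS replicate 2 apart from the 5 others of their groups. A gene was called at an adjusted p (edgeR quasi-likelihood F test, Benjamini-Hochberg) under 0.01 with an absolute log2 fold change over 0.58.

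The comparison in hairpin cells holds neither library that went against its label. In RIS+shHMGA1 against shHMGA1, 21 collagen genes were lower and 2 were higher, where 19.5% of all genes tested were called lower and 19.6% higher. The median log2 fold change was -1.72 over the 29 genes and -0.02 over all genes tested. COL14A1, COL8A2 and COL22A1 reached the filter level in no sample of at least 1 group, so that they passed through the groups where they were high. Among the 26 others, 20 were lower and 1 was higher. Without replicates 5 and 6 of RIS and RIS+shHMGA1, 19 of the 29 were lower and 2 higher, with a median of -2.0, and COL7A1 (adjusted p = 0.0295) and COL11A1 were not called. The share of all genes called in that fit was not counted. The class medians were -2.74 for 9 fibrillar, -2.07 for 7 network, -0.55 for 3 beaded and -1.69 for 5 FACIT genes. In 20 genes every RIS+shHMGA1 sample lay under every shHMGA1 sample, and in 2 every one lay above. Over all genes tested those shares were 22.5% and 20.9%.

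**Figure D1:**
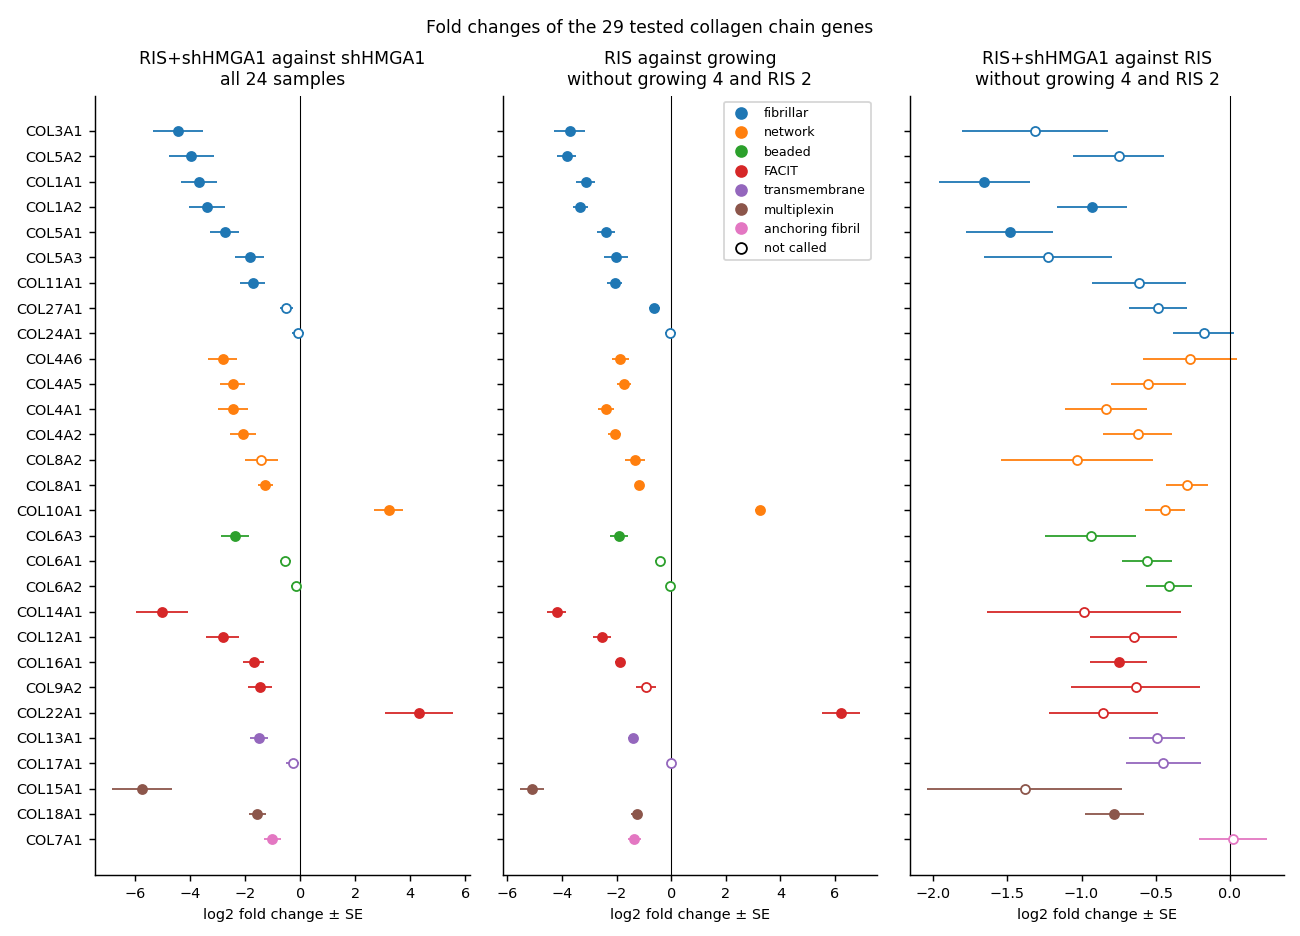
Log2 fold change ± SE (x axis) of the 29 tested collagen genes (y axis, coloured by class) in RIS+shHMGA1 against shHMGA1 with all 24 samples, and in RIS against growing and RIS+shHMGA1 against RIS without growing replicate 4 and RIS replicate 2; filled points were called. Most genes lie left of 0 in each panel, with COL10A1 and COL22A1 to the right in the first and second.

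Among the fibrillar genes, COL1A1 and COL1A2 encode the α1 and α2 chains of type I collagen, the main collagen of fibroblasts. COL1A1 (Entrez 1277, chr17:48261462-48278993 in GRCh37, minus strand) was at 10960, 15000 and 23310 CPM in the 5 other growing samples and 712 in growing replicate 4, 5256, 7869 and 8837 in shHMGA1, 881, 1054 and 3511 in the 5 other RIS samples and 13210 in RIS replicate 2, and 428, 519.5 and 789 in RIS+shHMGA1. Apart from the 2 libraries that went against their labels, the samples fell in the order growing, shHMGA1, RIS, RIS+shHMGA1 with no overlap between neighbours. It fell in RIS+shHMGA1 against shHMGA1 by 3.68 on the log2 scale (SE 0.65, adjusted p = 0.000265). RIS replicates 5 and 6, at 2885 and 3511 CPM, were above the 881 to 1054 CPM of replicates 1, 3 and 4, and RIS+shHMGA1 replicates 5 and 6, at 764 and 789 CPM, above the 428 to 526 CPM of the others. The labels name no batch for these numbers.

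COL1A2 (Entrez 1278, chr7:94024207-94060539, plus strand) was at 4931, 6416 and 9461 CPM in the 5 other growing samples and 325 in growing replicate 4, 2924, 3900 and 4478 in shHMGA1, 415, 475 and 1143 in the 5 other RIS samples and 6507 in RIS replicate 2, and 299.8, 342 and 446 in RIS+shHMGA1. Its change in RIS+shHMGA1 against shHMGA1 was -3.38 (SE 0.65, adjusted p = 0.000375), and the groups did not overlap. COL3A1, the chain of the type III homotrimer that runs with type I in soft tissue, also fell. It lay at 939, 1363 and 1901 CPM in the 5 other growing samples and 21.5 in growing replicate 4, 764, 963 and 1172 in shHMGA1, 25.6, 38.2 and 278 in the 5 other RIS samples and 1200 in RIS replicate 2, and 20.8, 26.6 and 83.7 in RIS+shHMGA1. The log2 fold change in hairpin cells was -4.44 (SE 0.91, adjusted p = 0.00054).

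Type V collagen nucleates fibrils inside type I fibres. Its chain gene COL5A2 was at 702, 1049 and 1274 CPM in the 5 other growing samples and 22 in growing replicate 4, 553, 592 and 848 in shHMGA1, 31.4, 36.3 and 138 in the 5 other RIS samples and 1070 in RIS replicate 2, and 30.9, 34.9 and 63.8 in RIS+shHMGA1, a log2 fold change of -3.96 (SE 0.81, adjusted p = 0.000575) in RIS+shHMGA1 against shHMGA1. COL3A1 and COL5A2 are neighbours on chromosome 2, at chr2:189839099-189877472 (plus) and chr2:189896624-190090038 (minus). Where a gene is given by its group medians, those of growing and RIS are over the 5 other samples, and the 2 libraries follow in brackets. COL5A1, the partner chain of COL5A2, had medians of 1032, 529, 123 and 69.3 CPM (89.9 in growing replicate 4 and 954 in RIS replicate 2) in growing, shHMGA1, RIS and RIS+shHMGA1 and a log2 fold change of -2.74 (SE 0.53). In the same order of groups, COL5A3 had medians of 96.8, 43.1, 17.7 and 11.4 CPM (12.5 in growing replicate 4 and 69 in RIS replicate 2), and COL11A1, a minor fibril-nucleating chain, had 9.52, 5.34, 1.9 and 1.62 CPM (1.29 in growing replicate 4 and 8.34 in RIS replicate 2). Both fell in hairpin cells, by 1.84 and 1.72 on the log2 scale.

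The remaining tested fibrillar genes, COL24A1 and COL27A1, were not called there. COL24A1 had medians of 4.79, 4.26, 4.41 and 3.55 CPM (2.57 in growing replicate 4 and 7.26 in RIS replicate 2) and a log2 fold change of -0.08 (SE 0.22, adjusted p = 0.752). COL27A1 had medians of 34.7, 25.2, 23.3 and 18.7 CPM (19.3 in growing replicate 4 and 47 in RIS replicate 2) and a value of -0.51 (SE 0.24, adjusted p = 0.0631).

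**Figure D2:**
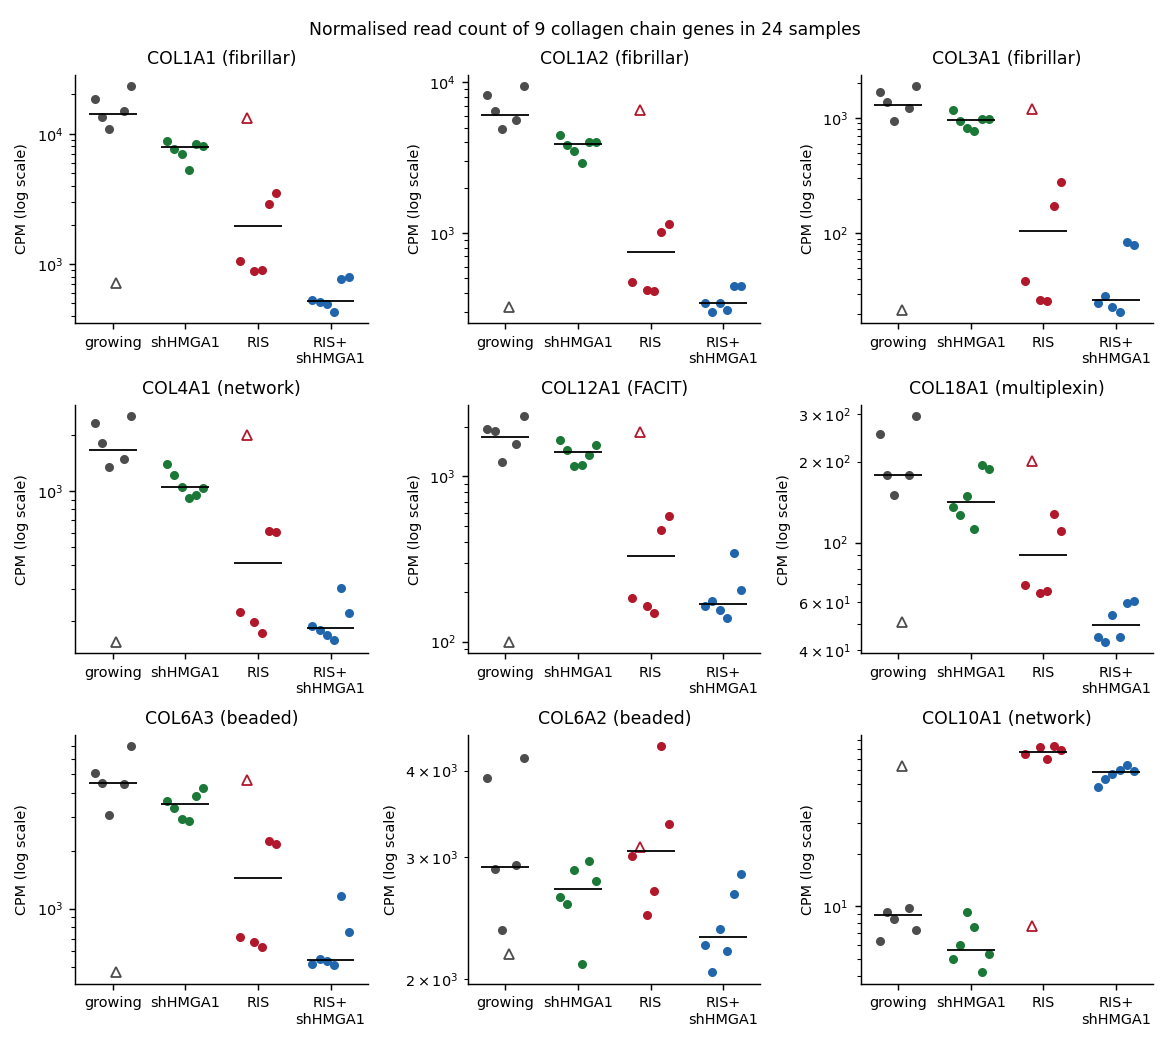
CPM (y axis, log scale, a scale of its own in each panel) of 9 collagen genes in each of the 24 samples by group; bars are the medians of 6 samples, and open triangles are growing replicate 4 and RIS replicate 2. The triangles lie with the opposite treatment for COL1A1, COL1A2, COL3A1, COL4A1, COL12A1, COL18A1, COL6A3 and COL10A1, while COL6A2 overlaps between the 4 groups.

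Among the network-forming genes, COL4A1 and COL4A2 encode the α1 and α2 chains of the widespread type IV trimer, 2 copies of α1 with 1 of α2. They lie head to head on chromosome 13, and in RefSeq (GRCh38.p14) their start sites are 127 bases apart, so that 226 of the 300 bases of their promoter windows are shared. The windows run from 250 bases before the start to 50 after, each 5′ to 3′ on its gene's own strand. They are shown because the genes share this stretch and were lower together. Capitals mark matches on either strand to 4 motifs: CCAAT (the CCAAT box), GGGCGG (the GC box), TATAAA (the TATA box) and TGANTCA (an AP-1 site), none of which overlaps another motif here. The COL4A1 window is chr13:110307108-110307407 (minus) and that of COL4A2 is chr13:110307034-110307333 (plus).
COL4A1: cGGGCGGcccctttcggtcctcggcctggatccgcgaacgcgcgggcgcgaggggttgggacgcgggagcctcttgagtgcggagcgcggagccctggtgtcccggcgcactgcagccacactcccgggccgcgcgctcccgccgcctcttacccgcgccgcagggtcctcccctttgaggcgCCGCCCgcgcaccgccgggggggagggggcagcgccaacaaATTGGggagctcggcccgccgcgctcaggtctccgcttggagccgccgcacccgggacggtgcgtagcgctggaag
COL4A2: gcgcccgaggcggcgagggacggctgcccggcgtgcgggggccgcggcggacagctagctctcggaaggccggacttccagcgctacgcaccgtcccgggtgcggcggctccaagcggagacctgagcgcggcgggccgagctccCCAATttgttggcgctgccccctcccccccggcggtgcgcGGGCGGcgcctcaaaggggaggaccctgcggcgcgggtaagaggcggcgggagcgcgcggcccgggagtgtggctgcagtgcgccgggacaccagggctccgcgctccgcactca
Each window holds 1 CCAAT match, with 2 GC box matches for COL4A1 and 1 for COL4A2. Both matches of the COL4A2 window lie in the shared bases and are counted again in that of COL4A1.

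COL4A1 was at 1346, 1819 and 2539 CPM in the 5 other growing samples and 155 in growing replicate 4, 919.7, 1050 and 1398 in shHMGA1, 174, 225 and 612 in the 5 other RIS samples and 2012 in RIS replicate 2, and 158, 185 and 304 in RIS+shHMGA1. COL4A2 was at 1304, 1689 and 2333 CPM in the 5 other growing samples and 209.7 in growing replicate 4, 944, 1184 and 1350 in shHMGA1, 252, 309 and 683 in the 5 other RIS samples and 1958 in RIS replicate 2, and 218, 247 and 396 in RIS+shHMGA1. For both genes all RIS+shHMGA1 samples lay under all shHMGA1 samples, with log2 fold changes of -2.43 (SE 0.54, adjusted p = 0.000942) and -2.07 (SE 0.46, adjusted p = 0.000994). The annotated genes overlap at their 5′ ends on opposite strands (chr13:110801310-110959504 and chr13:110958159-111165556 in GRCh37), and the strand setting of the authors' counting is not given in the sources used here.

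COL4A5 and COL4A6 form another head-to-head pair, on the X chromosome, and encode chains of a type IV trimer of specialised basement membranes. The start sites nearest each other are 380 bases apart, and the windows at chrX:108439588-108439887 (plus) and chrX:108439409-108439708 (minus) share 121 bases.
COL4A5: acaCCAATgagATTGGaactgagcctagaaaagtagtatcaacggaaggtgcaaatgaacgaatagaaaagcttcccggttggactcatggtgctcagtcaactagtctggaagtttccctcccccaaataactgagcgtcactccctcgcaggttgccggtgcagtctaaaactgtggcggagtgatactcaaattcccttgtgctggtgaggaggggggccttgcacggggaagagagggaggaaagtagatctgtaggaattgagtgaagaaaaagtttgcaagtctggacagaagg
COL4A6: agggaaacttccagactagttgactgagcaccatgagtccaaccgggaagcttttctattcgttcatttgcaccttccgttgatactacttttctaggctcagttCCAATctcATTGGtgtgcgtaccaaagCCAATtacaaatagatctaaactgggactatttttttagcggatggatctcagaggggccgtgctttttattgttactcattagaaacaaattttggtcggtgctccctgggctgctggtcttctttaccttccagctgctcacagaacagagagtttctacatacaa
These windows hold 2 and 3 CCAAT matches and no GC box match. Both matches of the COL4A5 window lie in the shared bases and are counted again in that of COL4A6. Another COL4A6 window, chrX:108438373-108438672 (minus), has its start 1416 bases from that of COL4A5. It holds 0 CCAAT matches and 1 GC box match and is not shown. COL4A5 had medians of 103, 131, 25.6 and 19.6 CPM (18.8 in growing replicate 4 and 144 in RIS replicate 2) in growing, shHMGA1, RIS and RIS+shHMGA1, and COL4A6 had 32.8, 52.2, 5.17 and 6.64 CPM (4.63 in growing replicate 4 and 51.1 in RIS replicate 2). In hairpin cells both fell with RAS, with log2 fold changes of -2.45 (SE 0.45) and -2.82 (SE 0.53). Against growing, the hairpin values were 0.39 (SE 0.42, adjusted p = 0.74) for COL4A5 and 0.90 (SE 0.48, adjusted p = 0.437) for COL4A6, and they were the only positive values among the network genes in that comparison.

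COL8A1, a chain of the hexagonal type VIII lattice, had medians of 115, 108, 44.6 and 43.1 CPM (30.1 in growing replicate 4 and 124 in RIS replicate 2) and a log2 fold change of -1.27 (SE 0.28, adjusted p = 0.000831) with RAS in hairpin cells. COL8A2, the other type VIII chain, was near the filter at medians of 1.07, 0.535, 0.436 and 0.172 CPM (0.129 in growing replicate 4 and 1.54 in RIS replicate 2) and was not called (-1.41, SE 0.59, adjusted p = 0.0406).

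COL10A1 moved the other way. It encodes the homotrimer of type X, known from hypertrophic cartilage, and was at 6.31, 8.47 and 9.75 CPM in the 5 other growing samples and 63.4 in growing replicate 4, 4.18, 5.64 and 9.3 in shHMGA1, 70.1, 78.2 and 82.5 in the 5 other RIS samples and 7.71 in RIS replicate 2, and 48.1, 58.4 and 64.8 in RIS+shHMGA1. The samples without 4OHT lay under those with it, apart from the same 2 libraries. In RIS+shHMGA1 against shHMGA1 it rose by 3.21 on the log2 scale (SE 0.54, adjusted p = 0.000224). The cartilage markers ACAN and CNMD stayed at a median of 0 in the groups where COL10A1 was high. MATN3, also on that list, went down from a median of 8.75 CPM in shHMGA1 to 1.03 in RIS+shHMGA1, and the summed level of the 5 cartilage genes was 6.23 to 10.2 CPM in shHMGA1 and 0.301 to 1.69 in RIS+shHMGA1. RefSeq lists 3 start sites for COL10A1. The windows of the most downstream and the middle one are shown because this gene moved against the rest of its class and they hold motif matches, at chr6:116126083-116126382 and chr6:116158723-116159022 (minus strand). The window of the most upstream start, chr6:116217095-116217394, holds no match to any of the 4 motifs. The counts do not show which start was used.
COL10A1, most downstream start: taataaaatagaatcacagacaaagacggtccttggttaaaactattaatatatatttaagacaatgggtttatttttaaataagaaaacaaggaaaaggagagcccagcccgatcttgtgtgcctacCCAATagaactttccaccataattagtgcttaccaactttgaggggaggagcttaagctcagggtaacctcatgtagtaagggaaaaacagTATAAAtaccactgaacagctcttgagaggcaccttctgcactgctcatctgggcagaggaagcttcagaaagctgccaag
COL10A1, middle start: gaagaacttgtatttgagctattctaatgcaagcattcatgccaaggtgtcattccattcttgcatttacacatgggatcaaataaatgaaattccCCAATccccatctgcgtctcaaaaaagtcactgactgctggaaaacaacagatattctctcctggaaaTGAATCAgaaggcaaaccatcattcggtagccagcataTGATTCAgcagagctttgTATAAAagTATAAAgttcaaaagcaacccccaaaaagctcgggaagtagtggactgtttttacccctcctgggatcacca
The first of these holds 1 CCAAT and 1 TATAAA match, and the second 1 CCAAT, 2 TATAAA and 2 TGANTCA matches.

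Of the 44 genes, 32 matched a RefSeq promoter, giving 44 windows. Those with no entry were COL1A1, COL1A2, COL3A1, COL5A2, COL6A1, COL8A1, COL2A1, COL14A1, COL22A1, COL9A3, COL20A1 and COL6A5. CCAAT was in 31.8% of them against 34.6% of all 35116 windows of this length in the table. GGGCGG was in 54.5% against 45.0%, and TATAAA in 18.2% against 11.5%. TGANTCA was in 2.27% against 7.71%, and the 1 collagen window that held it was the middle one of COL10A1.

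Of the 3 tested beaded genes, 1 was called. Type VI collagen is built from the α1, α2 and α3 chains of COL6A1, COL6A2 and COL6A3. COL6A1 (chr21:47401684-47424964, plus strand) was at 2800, 3630 and 5285 CPM in the 5 other growing samples and 1969 in growing replicate 4, 2380, 3082 and 3333 in shHMGA1, 2383, 2668 and 4218 in the 5 other RIS samples and 3778 in RIS replicate 2, and 1714, 1884 and 2596 in RIS+shHMGA1. It was not called in hairpin cells (-0.55, SE 0.20, adjusted p = 0.0219). COL6A2 (chr21:47518026-47552762, plus strand) was at 2353, 2918 and 4176 CPM in the 5 other growing samples and 2170 in growing replicate 4, 2104, 2699 and 2964 in shHMGA1, 2473, 3014 and 4338 in the 5 other RIS samples and 3103 in RIS replicate 2, and 2044, 2298 and 2837 in RIS+shHMGA1. The 4 groups overlapped, and the log2 fold change was -0.15 (SE 0.17, adjusted p = 0.431). COL6A3, which lies on chromosome 2, was at 3056, 4512 and 6959 CPM in the 5 other growing samples and 467 in growing replicate 4, 2834, 3473 and 4237 in shHMGA1, 632, 715 and 2245 in the 5 other RIS samples and 4657 in RIS replicate 2, and 508, 542 and 1162 in RIS+shHMGA1. It fell by 2.37 on the log2 scale in hairpin cells (SE 0.50, adjusted p = 0.000651).

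Among the FACITs, COL12A1 encodes the type XII homotrimer that coats type I fibrils. It was at 1229, 1878 and 2316 CPM in the 5 other growing samples and 99.3 in growing replicate 4, 1162, 1397 and 1668 in shHMGA1, 149.5, 183 and 573 in the 5 other RIS samples and 1849 in RIS replicate 2, and 139, 169.7 and 342 in RIS+shHMGA1. It fell by 2.82 on the log2 scale in hairpin cells (SE 0.59, adjusted p = 0.000622). COL16A1 lay at 64.6, 85.2 and 148 CPM in the 5 other growing samples and 18.5 in growing replicate 4, 38.8, 53 and 60.9 in shHMGA1, 20.1, 24 and 39.9 in the 5 other RIS samples and 96 in RIS replicate 2, and 13.1, 15.9 and 19.2 in RIS+shHMGA1, with a log2 fold change of -1.69 (SE 0.37, adjusted p = 0.000916) and no overlap between shHMGA1 and RIS+shHMGA1. COL9A2, a type IX chain, was near the filter at medians of 1.48, 1.43, 0.873 and 0.394 CPM (0.9 in growing replicate 4 and 2.36 in RIS replicate 2) and fell by 1.46 (SE 0.43, adjusted p = 0.00639).

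COL14A1, another FACIT of type I fibrils, was low throughout. It was at 2.6, 3.79 and 4.09 CPM in the 5 other growing samples and 0 in growing replicate 4, 2.7, 3.17 and 4.15 in shHMGA1, 0, 0.109 and 0.508 in the 5 other RIS samples and 3.72 in RIS replicate 2, and 0, 0.0988 and 0.146 in RIS+shHMGA1. In all, 248 reads were counted in the 6 shHMGA1 samples and 5 in the 6 RIS+shHMGA1 samples, and the fitted log2 fold change was -5.03 (SE 0.95, adjusted p = 0.000331). COL22A1, a FACIT known from tissue junctions, went up from almost no reads. It was at 0, 0 and 0.0763 CPM in the 5 other growing samples and 2.19 in growing replicate 4, 0, 0 and 0.253 in shHMGA1, 0.73, 2.08 and 2.62 in the 5 other RIS samples and 0 in RIS replicate 2, and 0.595, 1.06 and 1.4 in RIS+shHMGA1. With 55 reads in RIS+shHMGA1 and 3 in shHMGA1, the pooled ratio was 24.8 (exact 95% interval 8.06 to 124, counting error only). The fitted log2 fold change was 4.32 (SE 1.23, adjusted p = 0.00502) and depends on the prior count.

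Of the 2 tested transmembrane genes, 1 was called. COL13A1, found at cell adhesion sites, was at 45.1, 70.8 and 82.9 CPM in the 5 other growing samples and 16.6 in growing replicate 4, 46.5, 49.5 and 54.6 in shHMGA1, 17.9, 19.3 and 36.1 in the 5 other RIS samples and 79.5 in RIS replicate 2, and 11.6, 18.6 and 21.4 in RIS+shHMGA1, and fell by 1.5 on the log2 scale in hairpin cells (SE 0.34, adjusted p = 0.00106). COL17A1, a hemidesmosome protein of epithelia, was at 1.13, 1.57 and 2.3 CPM in the 5 other growing samples and 1.29 in growing replicate 4, 1.05, 1.69 and 1.98 in shHMGA1, 1.42, 1.58 and 2.12 in the 5 other RIS samples and 2.09 in RIS replicate 2, and 0.695, 1.17 and 1.87 in RIS+shHMGA1. Its groups overlapped, and the log2 fold change was -0.27 (SE 0.24, adjusted p = 0.33).

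The multiplexins are basement membrane collagens that carry glycosaminoglycan chains. COL15A1 was at 31.2, 44.4 and 107 CPM in the 5 other growing samples and 0.514 in growing replicate 4, 23.3, 30.4 and 53.4 in shHMGA1, 0.527, 0.763 and 4.2 in the 5 other RIS samples and 38.2 in RIS replicate 2, and 0.127, 0.495 and 1.6 in RIS+shHMGA1. The change of -5.74 (SE 1.08, adjusted p = 0.000337) was the furthest from 0 of any collagen gene in this comparison. COL18A1, the source of endostatin, was at 149.9, 179 and 296 CPM in the 5 other growing samples and 50.8 in growing replicate 4, 112, 142 and 195 in shHMGA1, 64.8, 69.4 and 128 in the 5 other RIS samples and 201 in RIS replicate 2, and 42.7, 49.4 and 60.5 in RIS+shHMGA1, and fell by 1.56 (SE 0.31, adjusted p = 0.000473). COL7A1, the anchoring fibril chain that ties basement membrane to stroma, was at 212, 419 and 641 CPM in the 5 other growing samples and 148 in growing replicate 4, 263, 319.5 and 462 in shHMGA1, 129, 148 and 229.6 in the 5 other RIS samples and 411 in RIS replicate 2, and 119.6, 161 and 223 in RIS+shHMGA1. It fell by 1.02 (SE 0.31, adjusted p = 0.00782).

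The other 15 genes did not pass the filter. COL9A1 and COL11A2 had 0 reads in all 24 samples, and COL20A1, COL26A1, COL6A5 and COL6A6 had 1 or 2. COL4A4, COL28A1, COL4A3, COL21A1, COL23A1, COL2A1, COL25A1 and COL19A1 had 9 to 32 reads in all, and COL9A3 had 119. In the order growing, shHMGA1, RIS, RIS+shHMGA1, the COL25A1 reads numbered 24, 5, 1 and 0 and those of COL19A1 4, 1, 11 and 16, and neither was tested.

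The comparison of RIS with growing asks what RAS does in vector cells, and it rests on both libraries that went against their labels. With all samples, 0 collagen genes were called by edgeR, where 0.0% of all genes tested were called, although 21 of the 29 (72.4%) had an unadjusted p under 0.05, beside 33.0% of all genes. DESeq2 also called 0, and limma-voom with sample weights called 25. The share of all genes called was not counted for either method. Without growing replicate 4 and RIS replicate 2, 22 were lower and 2 higher, where 20.5% and 19.2% of 13416 genes were called lower and higher. Among the 26 that reached the filter level in at least 1 sample of every group, 20 were lower and 1 higher. The median moved from -0.89 with all samples to -1.87 without the 2 libraries, beside -0.01 over all genes in both. Without those libraries, the log2 fold change of COL1A1 was -3.13 (SE 0.34, adjusted p = 3.31e-08), that of COL1A2 was -3.32 (SE 0.27) and that of COL5A2 was -3.82 (SE 0.36). COL15A1 had a log2 fold change of -5.09 (SE 0.45) and COL12A1 one of -2.53 (SE 0.32). COL10A1 rose by 3.25 (SE 0.16, adjusted p = 3.59e-14). COL22A1 had 95 reads in the 5 RIS samples and 1 in the 5 growing ones, a pooled ratio of 131 (exact 95% interval 22.9 to 5220, counting error only). COL6A2 (-0.03, SE 0.16), COL6A1 (-0.41, SE 0.18), COL24A1 (-0.04, SE 0.21), COL17A1 (under 0.01 in size, SE 0.14) and COL9A2 (-0.92, SE 0.36) were not called.

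With RAS and hairpin together against growing, 24 collagen genes were lower and 1 (COL10A1) higher, where 23.9% of all genes were called lower and 22.0% higher. Without the 2 libraries the counts were 24 and 2, where 28.5% and 28.3% were called. Among the 26 that reached the filter level in at least 1 sample of every group, 22 were lower and 1 was higher in both fits. With all samples, COL6A1 fell by 0.84 on the log2 scale (SE 0.20, adjusted p = 0.00136) and COL27A1 by 0.97 (SE 0.24, adjusted p = 0.00148) in this comparison. COL6A2 (-0.36, SE 0.17, adjusted p = 0.0574) was not called in that fit. Without the 2 libraries, every RIS+shHMGA1 sample of COL6A1 and COL27A1 lay under every growing sample, as in 27.9% of all genes. This comparison shares its growing samples with the preceding one.

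The hairpin alone was compared with growing cells. No collagen gene was called with all samples by edgeR (0 of 29) or DESeq2 (0), and 2 were by limma-voom with sample weights. The share of all genes called was not counted for DESeq2 or limma-voom. By edgeR, 0.135% of all genes were called lower and 0.135% higher. Of the 29, 2 had an unadjusted p under 0.05 in that fit, beside 13.2% of all genes. The median log2 fold change was -0.33, beside -0.03 over all genes tested, and 25 of the 29 values were negative. Without growing replicate 4, which belongs to this comparison, and RIS replicate 2, COL16A1 fell by 0.93 (SE 0.18, adjusted p = 0.0023) and was the 1 gene called, where 1.39% of all genes were called lower and 1.21% higher. In COL1A1, COL1A2, COL5A1, COL11A1 and COL16A1 all 6 hairpin samples then lay under the 5 growing samples. Over all genes that share was 3.62%. The COL1A1 value was -1.11 (SE 0.30, adjusted p = 0.0189) and that of COL1A2 was -0.87 (SE 0.24, adjusted p = 0.0178), neither past the threshold.

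Within senescent cells, RIS+shHMGA1 was set against RIS to ask what the hairpin changes once RAS is on. COL1A1 was the only collagen gene called with all samples, lower by 2.67 on the log2 scale (SE 0.63, adjusted p = 0.00972), where 0.786% of all genes were called lower and 1.77% higher. All 29 values were negative, with a median of -1.17 beside -0.06 over all genes tested. This call was lost when replicate 1, 2, 3, 5 or 6 was left out of every group, and also without RIS replicate 2 alone (0 genes called) or replicates 5 and 6 of RIS and RIS+shHMGA1 (adjusted p = 0.0529). RIS replicate 2 holds collagen transcripts at the level of growing cells. Without growing replicate 4 alone, 14 genes were called, and the share of all genes called in that fit was not counted. Without growing replicate 4 and RIS replicate 2 the median was -0.65, 28 of 29 values were negative and 5 genes were lower, where 2.5% of all genes were called lower and 10% higher. These were COL1A1 (-1.66, SE 0.31, adjusted p = 0.000997), COL5A1 (-1.49, SE 0.30, adjusted p = 0.00145), COL1A2 (-0.93, SE 0.24, adjusted p = 0.00495), COL18A1 (-0.78, SE 0.20, adjusted p = 0.00508) and COL16A1 (-0.75, SE 0.19, adjusted p = 0.0052). For COL1A1, COL16A1 and COL18A1 every RIS+shHMGA1 sample lay under every RIS sample, with or without the 2 libraries. For COL10A1 this held without them only. Over all genes the share lower without overlap was 5.23% with all samples and 6.24% without the 2. COL10A1, which rose with RAS, had a value of -0.44 (SE 0.14, adjusted p = 0.0165) and COL7A1 one of 0.02 (SE 0.23).

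The interaction asks whether the change with RAS differs between hairpin and vector cells. No collagen gene was called (0 of 29 by edgeR and 0 by DESeq2, lowest adjusted p = 0.426), where 0.0% of all genes were called. Of the 29, 7 had an unadjusted p under 0.05 with all samples (24.1%, beside 10.3% of all genes) and 1 without the 2 libraries (3.45%, beside 3.82%). The differences named above between the RAS effect in one background and that in the other were therefore not past this test.

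Levels per length (RPKM, from the canonical transcript of each gene) allow genes to be compared. By the median of all 6 growing samples COL1A1 was highest at 2405 RPKM, ahead of COL1A2 at 1187, COL6A1 at 855, COL6A2 at 841 and COL6A3 at 425. COL6A1 and COL6A2 did not differ beyond their spread there, with a ratio of 0.975 to 1.04 in the 5 other growing samples. In RIS+shHMGA1 the order began with COL6A2 at 667 RPKM and COL6A1 at 448, and COL1A1 at 87.8 and COL1A2 at 67.5 came next. COL10A1 stood 22nd of 44 in growing and shHMGA1 samples and 8th in RIS+shHMGA1, at 17.7 RPKM, next to COL7A1 at 17.5. COL3A1 went from 7th to 16th.

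By class, fibrillar chains made up 57.7% to 60.4% of the summed collagen RPKM in the 5 other growing samples, 46.9% to 52.4% in shHMGA1, 14.2% to 29% in the 5 other RIS samples and 10.8% to 13.5% in RIS+shHMGA1. Beaded chains made up 28.7% to 30.6%, 34.2% to 40.2%, 60.7% to 77.5% and 75.3% to 79.6% in the same samples. Growing replicate 4 had 14.0% fibrillar and 77.3% beaded, and RIS replicate 2 had 55.7% and 31.0%. These shares are ratios within a library, so that the scaling between libraries does not enter them. Network chains held 5.36% to 9.22% and FACITs 0.879% to 2.92% over all 24 samples.

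**Figure D3:**
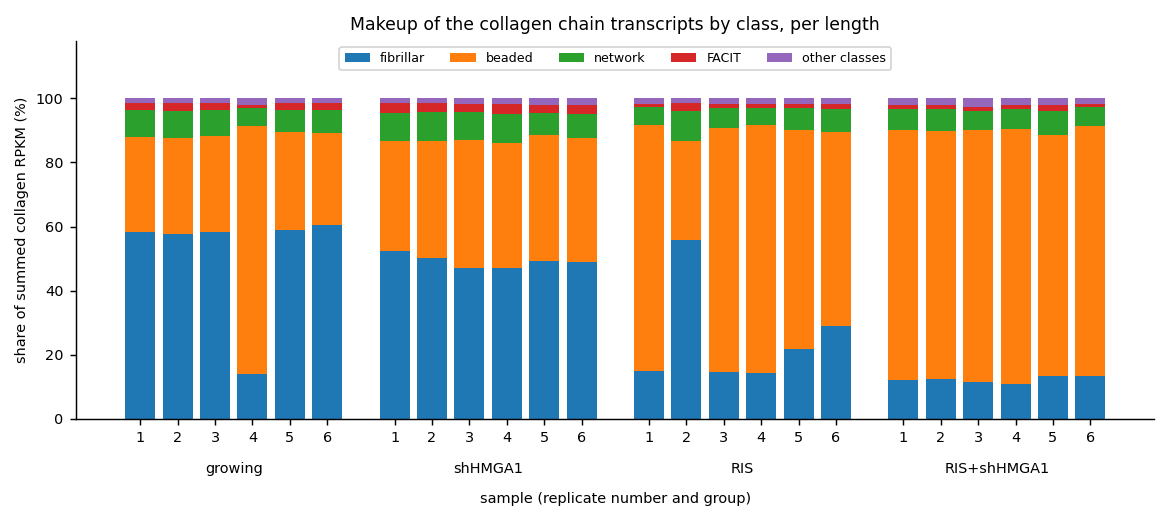
Share (%) of the summed RPKM of the 44 collagen genes held by fibrillar, beaded, network, FACIT and other classes (colours) in each of the 24 samples (bars, by group and replicate number). Fibrillar chains are the larger part without 4OHT and beaded chains with it, except in growing replicate 4 and RIS replicate 2.

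Chains that assemble together were also set against each other within each library, as a description with no test. COL1A1 over COL1A2, 2 chains to 1 in the type I trimer, was 1.80 to 2.29 per length in the growing samples and 1.54 to 1.78 in shHMGA1. It was 1.74 to 2.63 in RIS, and the RIS+shHMGA1 samples, at 1.20 to 1.52, lay under all others. Growing replicate 4, at 1.88, was within the range of its group in this ratio, and RIS replicate 2, at 1.74, lay just under the 1.80 to 2.63 of the 5 other RIS samples. COL4A1 over COL4A2 was 0.981 to 1.11 in the 5 other growing samples, 0.86 to 1.02 in shHMGA1, 0.681 to 0.984 in the 5 other RIS samples and 0.706 to 0.756 in RIS+shHMGA1. COL6A1 over COL6A2 went from 0.975 to 1.04 over 0.892 to 0.956 and 0.725 to 0.831 to 0.668 to 0.75 in the same order. COL6A3 over COL6A1 was 0.422 to 0.525, 0.373 to 0.524, 0.102 to 0.255 and 0.11 to 0.191, the samples with 4OHT lying lower apart from the same 2 libraries.

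**Figure D4:**
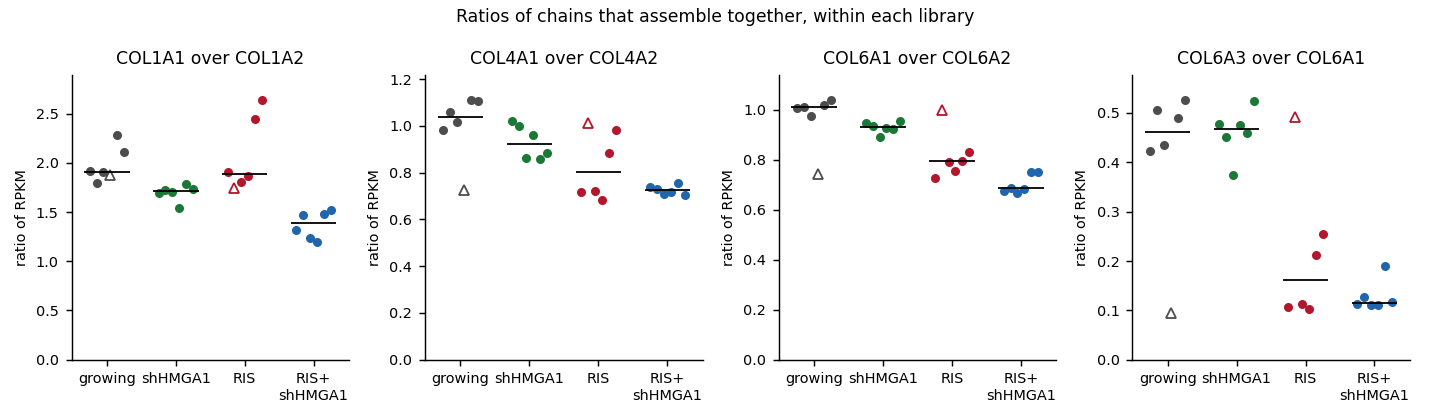
Ratio of RPKM (y axis, from 0) of chains that form a trimer together, in each of the 24 samples by group; bars are the medians of 6 samples and open triangles are growing replicate 4 and RIS replicate 2. RIS+shHMGA1 samples are the lowest for COL1A1 over COL1A2, at 1.20 to 1.52.

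A fixed list of enzymes, chaperones, proteinases and receptors that act on collagen was read alongside the chains. Of its 46 tested genes, 25 were lower and 3 higher in RIS+shHMGA1 against shHMGA1, beside the 19.5% and 19.6% of all genes given above. All 5 of the lysyl oxidases (LOX and LOXL1 to LOXL4), which cross-link fibrils, were lower, and so were 6 of 10 genes of prolyl hydroxylation, 3 of 5 of lysyl hydroxylation and glycosylation, and 4 of 6 collagen receptors. LOX went from 395, 449 and 579 CPM in shHMGA1 to 162, 173 and 189 in RIS+shHMGA1 (log2 fold change -1.46, SE 0.28, adjusted p = 0.0004). SERPINH1, the collagen chaperone HSP47, fell by 1.58 (SE 0.30, adjusted p = 0.000335). The largest falls were P3H2, a prolyl 3-hydroxylase of basement membrane collagen, at -2.79 (SE 0.50), P4HA3, a prolyl 4-hydroxylase subunit, at -2.75 (SE 0.51), and ADAMTS2, the procollagen N-proteinase, at -2.17 (SE 0.42).

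P3H2 was at 165, 187 and 197 CPM in shHMGA1 and 18.9, 25.0 and 35.7 in RIS+shHMGA1, and P4HA3 at 7.56, 8.96 and 11 against 0.903, 1.33 and 2.05. ADAMTS2 was at 46.7, 60.0 and 79.3 CPM against 11.8, 13.5 and 15.2. None of the 3 genes overlapped between these groups. The 3 that rose were the collagenases MMP8 (3.02, SE 0.73, adjusted p = 0.0017) and MMP1 (2.99, SE 0.73, adjusted p = 0.00188) and MIA2, of the collagen export machinery (0.98, SE 0.21, adjusted p = 0.000662). MMP1 was at 8272, 9407 and 14160 CPM in shHMGA1 and 51980, 93910 and 105100 in RIS+shHMGA1, while MMP8 stayed at or under 3.07 CPM in every sample. MIA2 was at 15.3, 17.6 and 21.0 against 31.4, 34.5 and 38.6 CPM.

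Levels in the hairpin comparisons of this list are over all 6 samples of each group, with growing replicate 4 and RIS replicate 2 among them. CTSK, the lysosomal collagenase cathepsin K, was the 1 gene of this list called for the hairpin in growing cells. It was at 63.5, 84.1 and 120 CPM in growing and 152, 184 and 260 in shHMGA1, a rise of 1.13 on the log2 scale (SE 0.17, adjusted p = 0.00132). The call was lost without replicate 1, 2, 3 or 5 and on the samples of the contrast alone, where the log2 values were 1.08 to 1.19 and the adjusted p 0.0113 to 0.0258. In senescent cells it rose from 73.9, 97.8 and 162 in RIS to 169, 185 and 202 CPM in RIS+shHMGA1, by 0.82 (SE 0.17, adjusted p = 0.00551). COLGALT1, a collagen galactosyltransferase, fell there by 0.81 (SE 0.14, adjusted p = 0.00189), from 200, 214 and 305 to 123, 135 and 145 CPM. P4HA2 fell by 0.68 (SE 0.13, adjusted p = 0.00429), from 216, 234 and 288 to 130, 148 and 171 CPM. For these 3 genes the RIS and RIS+shHMGA1 samples did not overlap, as in 5.23% (lower) and 8.0% (higher) of all genes. Each was also called without growing replicate 4 and RIS replicate 2, but none was without replicate 2, 3 or 5, or without replicates 5 and 6 of RIS and RIS+shHMGA1. CTSK was also lost without RIS replicate 2 alone (adjusted p = 0.013) or without replicate 1, and P4HA2 without replicate 1 or 6 and with voom.

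**Figure D5:**
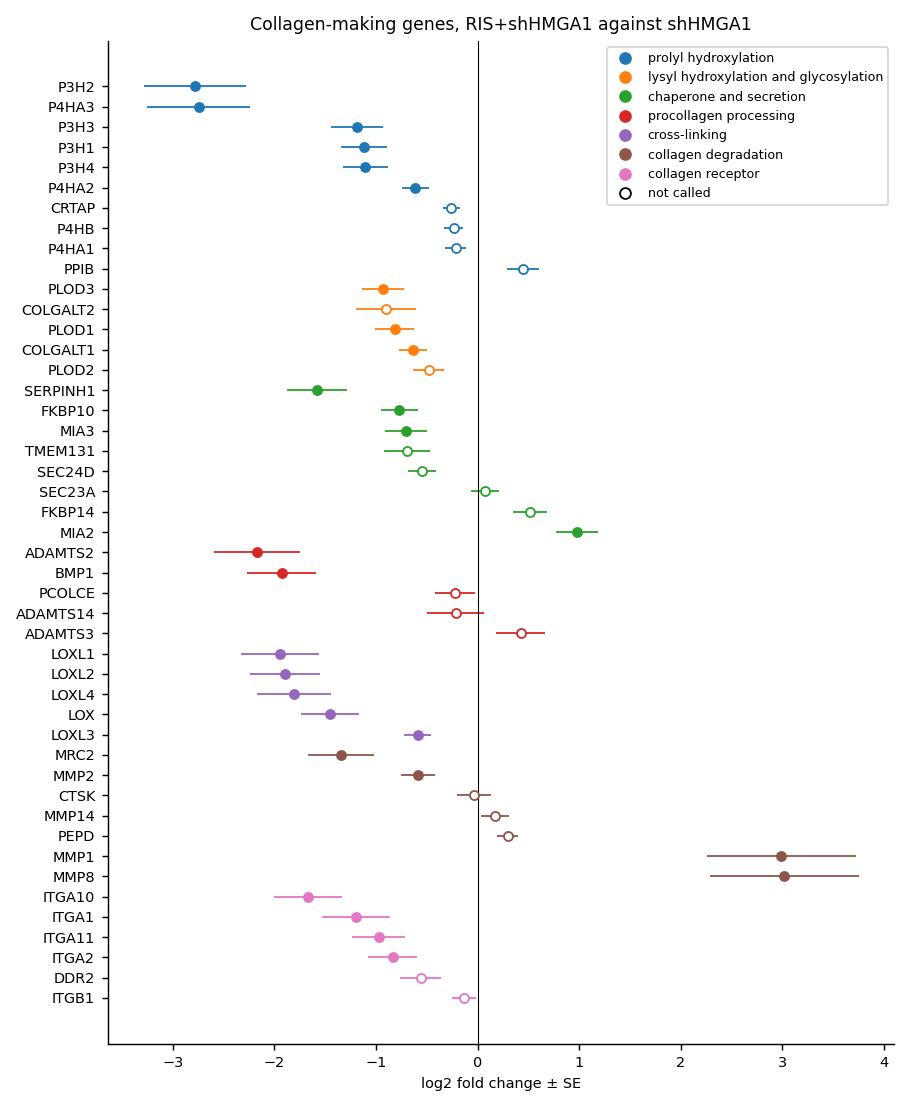
Log2 fold change ± SE (x axis) in RIS+shHMGA1 against shHMGA1 of the 46 tested collagen-making genes (y axis), coloured by step; filled points were called. Most lie left of 0, and MMP1, MMP8 and MIA2 are the filled points to the right.

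Of the 6 fibroblast markers, THY1 (log2 fold change -1.15), PDGFRB (-2.44), PDGFRA (-0.779) and S100A4 (-1.36) were called lower in RIS+shHMGA1 against shHMGA1. FAP was called higher there (1.095). THY1 had medians over all 6 samples of 346, 273, 151 and 119 CPM in growing, shHMGA1, RIS and RIS+shHMGA1, and PDGFRB 179, 108, 40.8 and 20.6. FAP went the other way, at 66.0, 72.2, 123 and 159. In the same order, PDGFRA was at 130, 170, 114.5 and 97.4 and S100A4 at 50.2, 71.2, 18.9 and 29.6. Both medians were higher with the hairpin in growing cells, and that of S100A4 also in senescent cells. VIM was not called in RIS+shHMGA1 against shHMGA1 (log2 fold change -0.33, SE 0.12, adjusted p = 0.0208). The summed level of the 4 smooth muscle genes was 382 to 460 CPM in shHMGA1 and 93.0 to 135 in RIS+shHMGA1, and that of the 6 endothelial genes, most of it TEK, was 70.5 to 125 and 19.5 to 27.6. CLDN5, the other tested endothelial gene, went the opposite way, from a median of 0.0979 to one of 4.58 CPM (log2 fold change 5.41, SE 1.29, adjusted p = 0.00153). It had 7 reads in all of shHMGA1, with no sample there over 0.18 CPM, and passed the filter through the groups where it was high. Its fitted value depends on the prior count. The 6 fibroblast genes summed to 4746 to 5373 CPM in shHMGA1 and 3595 to 4531 in RIS+shHMGA1. The 6 epithelial genes stayed within 1.46 to 5.47 CPM and the 6 leukocyte genes within 0.957 to 3.43 over all samples. The 10 genes with the most reads held 6.02% to 6.74% of counts in shHMGA1 and 15.9% to 22.4% in RIS+shHMGA1. The part of these measures in the collagen values was not tested.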

How the data were processed

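RNA-seq libraries (a stranded mRNA kit) of 24 IMR90 samples were read as the labels group them, 6 per group. Per the submitters' notes, reads were trimmed with cutadapt 1.10.0 and mapped with STAR 2.5.0b to hg19, and mappings of quality under 20 were dropped. The authors deposited raw counts per Entrez identifier from Rsubread, without normalisation. The annotation and strand setting of the counting are not given in the sources used here.

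Symbols came from RefSeq, lengths and coordinates from GENCODE on GRCh37, and promoter windows from RefSeq on GRCh38.p14, used for sequence only. The members, classes and other lists were chosen with earlier results of these data known. Genes were filtered with filterByExpr by group and tested with edgeR 4.0.16 (R 4.3.3), using TMM and a quasi-likelihood fit of group means over all 24 samples, without a replicate block. The thresholds follow the study's methods. Total counts of 8698070 to 23103424 set the counting precision. The labels call the samples biological replicates without saying how cultures were kept apart, so p-values measure the spread between these samples.

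Genes given in full were the 2 per class with the highest RPKM, any called in a hairpin contrast or the interaction, and up to 5 per direction with the largest called change in RIS+shHMGA1 against shHMGA1. LOX and SERPINH1, outside the rule for collagen-making genes (the 3 largest called changes per direction, and those called in a hairpin contrast), were chosen after their values were seen. The fit was tested on simulated counts with a fixed spread, changed genes in RIS+shHMGA1 only and no library against its label. That test therefore says nothing about the contrasts that hold the 2 such libraries. Alternatives were DESeq2 1.42.0, RLE scaling, no filter, a filter of 1 CPM in 6 samples, a replicate block, fewer samples in the fit, an FDR of 0.05 with no fold threshold, limma 3.58.1 voom with sample weights, leaving out replicates or the 2 libraries that went against their labels, leaving out replicates 5 and 6 of RIS and RIS+shHMGA1 (added after seeing the data), and other transcript lengths.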

Additional observations from a re-analysis of the deposited data

Results flagged for a closer look

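In the 72 groups of 6 samples of the 18 fully described genes, 15 had 1 sample whose gap to its neighbour took up more of the log2(CPM + 1) range than Dixon's 95% limit for 6 samples. Chance gives about 1 in 20 groups, or 3.6. Growing replicate 4 accounted for 11 and RIS replicate 2 for 3. In growing replicate 4 the ratios were 0.823 for COL10A1, 0.798 for COL12A1, 0.786 for COL14A1, 0.717 for COL15A1, 0.784 for COL1A1, 0.807 for COL1A2, 0.937 for COL22A1, 0.841 for COL3A1, 0.773 for COL4A1, 0.758 for COL4A2 and 0.852 for COL5A2. In RIS replicate 2 they were 0.929 for COL10A1, 0.735 for COL14A1 and 0.632 for COL1A2. The last was COL22A1 in shHMGA1 replicate 2 (1.0), the 1 sample of that group with any read, at 0.253 CPM.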

How the results depend on the processing

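With RAS in hairpin cells, 18 to 24 collagen genes were called when replicates were left out, against 23 with all samples, and 19 to 26 in RIS+shHMGA1 against growing, against 25. No other setting moved either by over 1.5 times. Shares of all genes called were counted only for edgeR with all samples and without growing replicate 4 and RIS replicate 2. The other counts given here therefore have no such share beside them. In RIS against growing (0 with all samples), leaving out replicates gave 0 to 24, voom with sample weights 25 and an FDR of 0.05 with no fold threshold 9. Leaving out growing replicate 4 alone gave 18, and RIS replicate 2 alone 21. In shHMGA1 against growing (0), leaving out gave 0 to 1 and voom 2. In RIS+shHMGA1 against RIS (1), leaving out gave 0 to 14, DESeq2 10, no filter 0, the samples of the contrast alone 0, voom 3 and the FDR of 0.05 gave 19. COL1A1 was thus not called there without the filter or on the samples of the contrast alone, and without growing replicate 4 alone 14 genes were. The interaction stayed at 0 in every setting run. Collagen-making genes gave, when replicates were left out, 0 to 26 in RIS against growing, 0 to 4 in shHMGA1 against growing, 26 to 37 in RIS+shHMGA1 against growing, 0 to 22 against RIS, 21 to 30 against shHMGA1 and 0 in the interaction. In RIS against growing they gave 6 with DESeq2, 29 with voom and 14 at the FDR of 0.05. In shHMGA1 against growing they gave 0 on the contrast alone and 3 with voom, and in RIS+shHMGA1 against RIS 13 with DESeq2, 5 on the contrast alone, 8 with voom and 30 at the FDR of 0.05. Without replicates 5 and 6 of RIS and RIS+shHMGA1, 0 collagen and 0 collagen-making genes were called in RIS+shHMGA1 against RIS. This setting, these list counts and the class shares under left-out libraries were added after seeing the data. The median share of counts ranged over 4.44% to 4.54% in growing, 3.01% to 3.36% in shHMGA1, 0.90% to 1.76% in RIS and 0.502% to 0.527% in RIS+shHMGA1 when 1 library was left out. The cause of these differences was not tested.

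Pairing was taken as shown only where all 6 same-numbered pairs of a contrast correlated over 0.1, and no contrast met that. In shHMGA1 against growing and in RIS+shHMGA1 against RIS and against shHMGA1, 5 of 6 did, and the pair that missed in RIS+shHMGA1 against RIS (-0.202) was replicate 2, whose RIS library went against its label. In RIS against growing, which holds both such libraries, and RIS+shHMGA1 against growing, 3 of 6 did, with values as low as -0.594. Of the 12 samples of a contrast, 2 to 8 correlated best with their own number, the 8 in shHMGA1 against growing. The correlations used deviations from group means that include the 2 libraries, so they cannot settle whether same-numbered samples were paired. With the replicate number as a block, 3 collagen genes and 7 collagen-making genes were called in RIS+shHMGA1 against RIS, and in the other contrasts the block moved no count by over 1.5 times. It turned the uncalled hairpin values of COL12A1 to 0.15 and COL3A1 to 0.11.

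Of 1601 alternative values of the 18 fully described genes, 22 had the opposite sign, and none of those was called in either fit. When replicates or either or both of the libraries that went against their labels were left out, the shHMGA1 against growing values ranged from -0.36 to 0.016 for COL12A1, -0.14 to 0.19 for COL14A1, -0.27 to 0.035 for COL17A1 and -4.91 to 1.05 for COL22A1, and voom gave -0.11 for COL14A1 and 0.74 for COL22A1. In RIS against growing they ranged from -0.0001281 to 0.29 for COL17A1 and -0.083 to 0.14 for COL6A2 (voom -0.071, and without replicates 5 and 6 of RIS and RIS+shHMGA1 -0.12), and in RIS+shHMGA1 against RIS from -0.49 to 0.071 for COL7A1 (voom 0.21). By the mean over the 24 samples, COL1A1 was first and COL6A2 second per length with the canonical, the longest or the shortest transcript. The third place changed with the length, COL6A1 with the canonical or longest transcript and COL6A3 with the shortest.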
